A study of Mus musculus with 8 samples.

Results

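A set of 5 miRNAs, mmu-miR-762, mmu-miR-1224, mmu-miR-149*, mmu-miR-3077* and mmu-miR-2137, stood high on the arrays of cortical thymic epithelial cells (cTECs) once the arrays had been scaled to each other. They are 5 of the 1040 mouse miRNAs on the array and were chosen from the measured signal itself, by their excess on the cTEC arrays, so that every value of cTECs against the other populations is a description here and carries no test. A miRNA was tested when at least 2 arrays showed its probe well above background, which held for 309. The 5 were among the 65 that met this on all 8 arrays. The order of the 309 by the difference of cTECs from mTECs put the 5 in places 1 to 5, with mmu-miR-2137 at 1.96, mmu-miR-762 at 1.93 and the first miRNA outside the set, miR-2861, at 1.79 on the log2 scale. That order holds for the floor used, a scaled signal of 621 under which values were raised to it, so that differences of dimmer miRNAs are understated. With a lower floor, the median or the lowest of the limits of the 8 arrays, and also on the unscaled signal, the 5 took places between 2 and 8, and miR-346* took place 1.

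The study profiled miRNAs of 3 sorted thymic populations to find those that mark thymic epithelium. All mice were female NOD wildtype animals aged 4 weeks, NOD being a strain that develops autoimmune diabetes, and the labels name no treatment. Cells negative for CD45 and positive for EpCAM and MHC II were sorted as cTECs when positive for Ly51 (2 samples) and as medullary thymic epithelial cells (mTECs) when negative for it (3 samples). The CD45+ population, mostly developing T cells in a thymus, was sorted as EpCAM negative (3 samples). Each sample is a biological replicate from the pooled thymi of 10 to 12 mice, so that the spread between samples is a spread between pools and not between animals. The purity of the sorts could be checked here only through miRNAs, so that each population is what its gate held.

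MicroRNAs are short RNAs cut from a hairpin precursor, and each strand of the hairpin can give a mature miRNA that pairs with messenger RNAs through its seed, bases 2 to 8. The strand marked with a star is the one originally found to be the rarer of the pair. Cortical epithelium supports the early steps of T cell development and positive selection, whereas medullary epithelium displays tissue antigens to developing T cells.

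The mature sequences are shown because what the 5 share beyond their signal is their base composition. They are those of RefSeq on the GRCm38.p6 assembly, matched by identity to the part of each probe that pairs with the miRNA, as was possible for 828 of the 1040 mouse probes. Each runs 5′ to 3′ with the seed in capitals.
mmu-miR-762: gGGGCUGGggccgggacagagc
mmu-miR-1224: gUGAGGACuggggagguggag
mmu-miR-149*: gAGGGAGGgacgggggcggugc
mmu-miR-3077*: cUGCGGACgggugggcgggcaggcc
mmu-miR-2137: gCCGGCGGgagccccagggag

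Each of the 5 had a seed of its own. No other mature miRNA of the RefSeq table carried the seed of mmu-miR-1224, mmu-miR-3077* or mmu-miR-2137. The seed of mmu-miR-762 was shared with 2 others, miR-6940-5p and miR-7648-3p, and that of mmu-miR-149* with 3, miR-1943-5p, miR-6967-5p and miR-7016-5p. The set is no seed family.

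Nor do the 5 come from one locus. The mature mmu-miR-762 lies at chr7:127708534-127708555 on the plus strand, in a hairpin within the bounds of Bcl7c, and mmu-miR-1224 (miR-1224-5p in RefSeq) at chr16:20604452-20604472 on the plus strand, within Vwa5b2. For mmu-miR-149*, now miR-149-3p, the position is chr1:92850421-92850442 on the plus strand, within Gpc1, which encodes the cell-surface proteoglycan glypican 1. The plus strand at chr14:57798424-57798448 gives mmu-miR-3077*, now miR-3077-5p, within Sap18, which encodes a Sin3-associated protein. The fifth, mmu-miR-2137, lies at chrX:72992113-72992133 on the plus strand, within Zfp185. The 5 are on 5 different chromosomes, and the gene table used gives bounds but no exons.

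All 5 sequences were rich in G. Their G+C share was 66.7% for mmu-miR-1224, 81.8% for mmu-miR-762 and mmu-miR-149*, 84% for mmu-miR-3077* and 85.7% for mmu-miR-2137, beside a median of 47.8% over the 1040 mouse miRNAs on the array. Guanine alone made up between 52.4% and 68.2% of their bases, beside a median of 24%. A guanine share of at least 50% was found in 5 of the 5, in 3.65% of the 1040 and in 24.6% of the 65 measured on all arrays. The motif GGG, searched on the miRNA strand as separate runs of at least 3 guanines, occurred 2 or more times in 4 of the 5, in 4.04% of the 1040 and in 21.5% of the 65. The exception was mmu-miR-1224, with 1 run.

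The probes follow from the sequences. In the deposited table every mouse probe is 1 leading G, the reverse complement of the miRNA and a tail of 10 T, shown here for the probe of mmu-miR-762 with the added bases in capitals.
probe of mmu-miR-762: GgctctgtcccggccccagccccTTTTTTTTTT

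Signal before any scaling between arrays is given first, as the processed signal of the scanner software, which is the spot brightness after background subtraction. For mmu-miR-762 the CD45+ arrays gave 5405, 5382 and 5068, the cTEC arrays 17949 and 11781, and the mTEC arrays 17866, 7856 and 15486. Both cTEC arrays lay above all CD45+ arrays, cTEC replicate 1 level with the brightest mTEC array and cTEC replicate 2 below 2 of the mTEC arrays. The processed signal of mmu-miR-1224 was 25729, 28538 and 24123 on CD45+, 64244 and 43350 on cTEC and 55181, 27608 and 52448 on mTEC arrays. Again the cTEC arrays exceeded the CD45+ arrays, while the second cTEC array lay below 2 of the mTEC arrays.

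The processed signal of mmu-miR-149*, the star strand of the miR-149 hairpin, was 3324, 3760 and 2935 on CD45+, 7022 and 5169 on cTEC and 6753, 2645 and 7969 on mTEC arrays. Its brightest array was mTEC replicate 3. For mmu-miR-3077* the values were 1401, 1928 and 1235 on CD45+, 3502 and 1501 on cTEC and 2408, 1083 and 1911 on mTEC arrays. Here the second cTEC array fell among the CD45+ arrays. The processed signal of mmu-miR-2137 was 38840, 45200 and 38880 on CD45+, 60840 and 42620 on cTEC and 56700, 30996 and 49696 on mTEC arrays, and again the second cTEC array lay inside the CD45+ range.

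Between the brightest and the dimmest array the unscaled signal of the 5 differed by 1.96-fold for mmu-miR-2137 to 3.54-fold for mmu-miR-762, with a median of 3.01-fold. Over the 65 miRNAs measured on all arrays the median of the same quantity was 5.93-fold. The 5 spots of a probe varied little within an array, with coefficients of variation from 1.09% to 7.86% for the 5 miRNAs. On the log2 scale the unscaled difference of cTECs from CD45+ cells was 1.46 for mmu-miR-762, 1.02 for mmu-miR-1224, 0.86 for mmu-miR-149*, 0.62 for mmu-miR-3077* and 0.32 for mmu-miR-2137. From mTECs it was between 0.17 and 0.42.

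Without scaling, none of the 309 tested miRNAs lay higher on both cTEC arrays than on all other 6 arrays (0%), and so none of the 5. Both cTEC arrays lay above the 3 CD45+ arrays for 12 of the 309 (3.88%), and 3 of these 12 were mmu-miR-762, mmu-miR-1224 and mmu-miR-149*. On average the 5 were higher in cTECs than in CD45+ cells even before scaling, whereas most other miRNAs were lower. The median unscaled difference of cTECs from CD45+ cells was -1.23 over the 65 miRNAs and 0.86 over the 5.

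The cTEC arrays were dim as a whole, and every scaled value of the 5 rests on this. The 75th percentile of the 65 miRNAs, by which arrays were scaled, was 10578, 11408 and 8323 on CD45+, 2910 and 1364 on cTEC and 11503, 4213 and 6408 on mTEC arrays. Fewer mouse miRNAs were well above background on cTEC arrays (122 and 98) than on CD45+ (169 to 229) or mTEC arrays (236 to 325). The amount of RNA put on each array is not given in the sources used here, fewer cells of a type and less RNA per cell cannot be told apart in sorted bulk RNA, and the part of the RNA amount in the values below was not tested. The 77 negative control spots of an array averaged between -102 and -66.4, and none of the 616 over the 8 arrays was well above background.

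**Figure D1:**
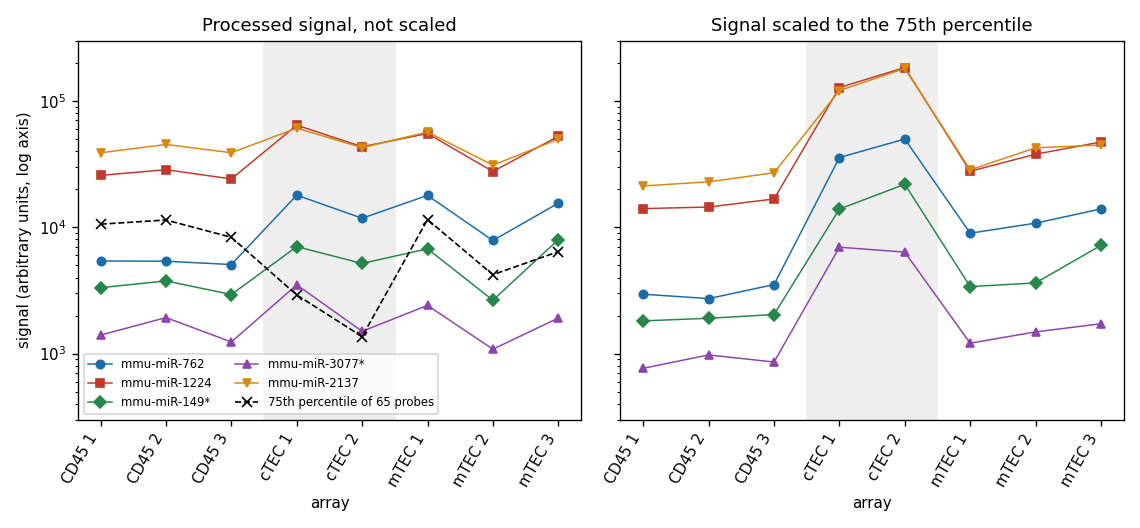
Signal of the 5 miRNAs on each of the 8 arrays (horizontal axis) on a logarithmic vertical axis in arbitrary units, before (left) and after (right) scaling, with the cTEC arrays shaded and the 75th percentile of 65 mouse probes dashed on the left. On the left the 5 lines stay within 1.96-fold to 3.54-fold between their highest and lowest array while the dashed line drops to 2910 and 1364 on the cTEC arrays; on the right all 5 peak on the cTEC arrays.

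After scaling, both cTEC arrays lay above all other 6 arrays for each of the 5. The scaled signal of mmu-miR-762 was 2951, 2725 and 3517 on CD45+, 35627 and 49879 on cTEC and 8970, 10769 and 13957 on mTEC arrays, in arbitrary units. The 3 populations did not overlap and stood in the order cTEC, mTEC, CD45+. For mmu-miR-1224 the scaled values were 14047, 14448 and 16740 on CD45+, 127517 and 183538 on cTEC and 27706, 37846 and 47269 on mTEC arrays, in the same order and without overlap.

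For mmu-miR-149* the CD45+ arrays gave 1815, 1904 and 2037, the cTEC arrays 13938 and 21885, and the mTEC arrays 3390, 3625 and 7182, as scaled signal. The mTEC replicate 3 array stood apart from the other 2 of its population. The scaled signal of mmu-miR-3077* was 765, 976 and 857 on CD45+, 6950 and 6355 on cTEC and 1209, 1485 and 1723 on mTEC arrays. The scaled signal of mmu-miR-2137 was 21206, 22884 and 26981 on CD45+, 120759 and 180447 on cTEC and 28469, 42490 and 44789 on mTEC arrays, with its lowest mTEC array just above the highest CD45+ array.

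As group means of log2 scaled signal, mmu-miR-762 measured 11.57 ± 0.19 (SD, n = 3) in CD45+ cells, 15.36 ± 0.34 (n = 2) in cTECs and 13.43 ± 0.32 (n = 3) in mTECs. Its log2 difference of cTECs was 3.79 from CD45+ cells, a 13.8-fold ratio of geometric means, and 1.93 from mTECs, 3.81-fold. The same differences were 3.35 and 2.06 for mmu-miR-1224, 3.19 and 1.97 for mmu-miR-149*, 2.95 and 2.19 for mmu-miR-3077* and 2.65 and 1.96 for mmu-miR-2137. The ratio to CD45+ cells therefore ran from 6.26-fold for mmu-miR-2137 to 13.8-fold for mmu-miR-762, while the ratio to mTECs stayed between 3.81-fold and 4.56-fold. The SD of log2 scaled signal between the 2 cTEC arrays ranged from 0.09 for mmu-miR-3077* to 0.46 for mmu-miR-149*.

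Of the 309 miRNAs tested, 34 lay higher on both cTEC arrays than on all other arrays after scaling (11%). Of the 65 measured on all arrays, 29 did so (44.6%). The 5 belong to the 65 and were chosen to be among those higher. In the order of the 309 by the scaled difference of cTECs from CD45+ cells they took places 1, 3, 4, 5 and 7. This order, too, is one set by the floor: the 5 took places 4 to 15 with the median limit as floor, 5 to 21 with the lowest and 4 to 19 on the unscaled signal. The miRNA in place 2 was miR-125b-5p (3.41), which differed from the set in standing as high in mTECs, with a difference of cTECs from mTECs of 0.21. Its mean scaled signal in CD45+ cells, 339, lay under the floor, so that 3.41 is understated, and its unscaled difference of 1.98 was above the 1.46 of mmu-miR-762. Place 6 was held by miR-2861 (2.69).

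The place of a probe in the order of brightness within its own array does not change with a factor that multiplies the whole array. Among the 1040 mouse probes, mmu-miR-762 took places 40, 51 and 34 on CD45+, 8 and 9 on cTEC and 13, 11 and 9 on mTEC arrays. Its cTEC places touched those of mTEC replicate 3. For mmu-miR-1224 the places were 9, 10 and 9 on CD45+, 2 and 4 on cTEC and 8, 8 and 7 on mTEC arrays, and for mmu-miR-2137 they were 7, 7 and 7 on CD45+, 3 and 5 on cTEC and 7, 6 and 8 on mTEC arrays. Both probes were already among the first 10 on the other arrays.

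The larger moves in place were those of the star strands. The probe of mmu-miR-149* went from places 60, 61 and 57 on CD45+ and 34, 32 and 15 on mTEC arrays to place 11 on both cTEC arrays. That of mmu-miR-3077* went from 85, 81 and 83 on CD45+ and 71, 62 and 56 on mTEC arrays to 16 and 14 on cTEC arrays. Both cTEC places were higher than the other 6 for 4 of the 5, the exception being mmu-miR-762, and for 61 of the 309 (19.7%). The 5 together made up 26.5% and 25.8% of the summed unscaled signal of the 65 miRNAs on the cTEC arrays, 10.1% to 13.0% on mTEC arrays and 6.18% to 6.94% on CD45+ arrays.

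**Figure D2:**
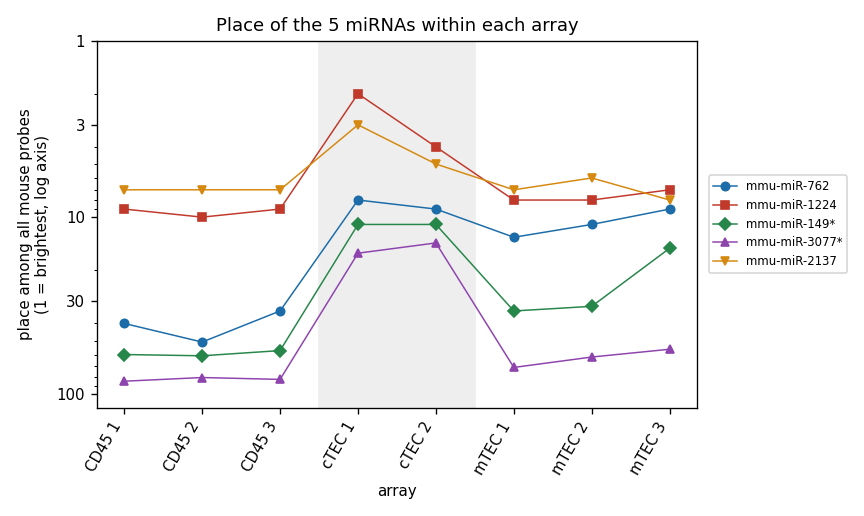
Place of each of the 5 miRNAs among the 1040 mouse probes of an array, with place 1 the brightest at the top of a logarithmic vertical axis and the 8 arrays along the horizontal axis, cTEC arrays shaded. The probe of mmu-miR-3077* rises from places 56 to 85 on the other arrays to 16 and 14 on cTEC arrays, while mmu-miR-1224 and mmu-miR-2137 stay within the first 10 throughout.

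The comparison of mTECs with CD45+ cells was fitted with limma over all 309 miRNAs, with Benjamini-Hochberg adjustment at 0.05. It does not contrast the cTEC arrays, but these enter its filter, scaling and variance, since the 3 groups were fitted in 1 model. The groups compared are those against which the cTEC excess was measured when the set was chosen. The calls for the 5 are therefore not independent of the choice. The comparison called 74 miRNAs, 28 higher in mTECs (9.06%) and 46 lower, and 89 had an unadjusted p under 0.05. This balance moved with the scaling, to 18 higher and 92 lower with the 75th percentile of all mouse probes, 20 and 82 with that of all probes that were not controls, and 27 and 20 with that of mouse probes of G+C under 65%. Of the 5 miRNAs, 4 were called higher in mTECs, as also in a fit of the 6 CD45+ and mTEC arrays alone, which called 77 miRNAs. That fit kept the scaling, floor and filter set with the cTEC arrays, and only its variance was free of them. The log2 difference of mmu-miR-762 was 1.86 ± 0.21 (SE, 3 against 3 arrays, limma adjusted p = 9.72e-04), a 3.63-fold ratio, and that of mmu-miR-1224 was 1.29 ± 0.23 (limma adjusted p = 0.00733), a 2.44-fold ratio. After scaling, all 5 were higher on every mTEC array than on every CD45+ array, and without scaling only mmu-miR-762 was. The share of the 309 for which this held was not counted.

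Both star strands were called higher in mTECs as well. The log2 difference of mmu-miR-149* in mTECs was 1.22 ± 0.33 (limma adjusted p = 0.0425), and that of mmu-miR-3077* was 0.76 ± 0.15 (limma adjusted p = 0.0121). For mmu-miR-149* the call was lost when any 1 of 6 arrays was left out, all but mTEC replicates 1 and 3, with an adjusted p of up to 0.133, and with the slide row as a block, with an adjusted p of 0.0635. The log2 difference of mmu-miR-2137 was 0.68 ± 0.23 and did not pass (limma adjusted p = 0.104). However, limma called it without mTEC replicate 1 (0.89, adjusted p = 0.0321). It was also called with the slide row (0.52, limma adjusted p = 0.00943) or the replicate number (0.68, limma adjusted p = 0.0198) as a block. Further calls came with the filter of all 8 arrays (limma adjusted p = 0.0351) and with scaling to the other miRNAs of at least 65% G+C (0.67, limma adjusted p = 0.0152). With that scaling mmu-miR-3077* was not called (adjusted p = 0.141), nor was it with scaling to miRNAs of less than 65% G+C (adjusted p = 0.216).

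These calls, too, moved with the scaling. On the unscaled signal limma called 26 miRNAs higher in mTECs (8.41%), and of the 5 only mmu-miR-762, with a log2 difference of 1.29 ± 0.34 (limma adjusted p = 0.0354). Unscaled differences of the other 4 lay between 0.12 and 0.72 with adjusted p from 0.14 to 0.78. When arrays were scaled to the 75th percentile of all mouse probes, or of all probes that were not controls, limma called none of the 5, and the differences of mmu-miR-3077* (-0.08 in both) and mmu-miR-2137 (-0.16 and -0.15) turned to lower in mTECs.

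**Figure D3:**
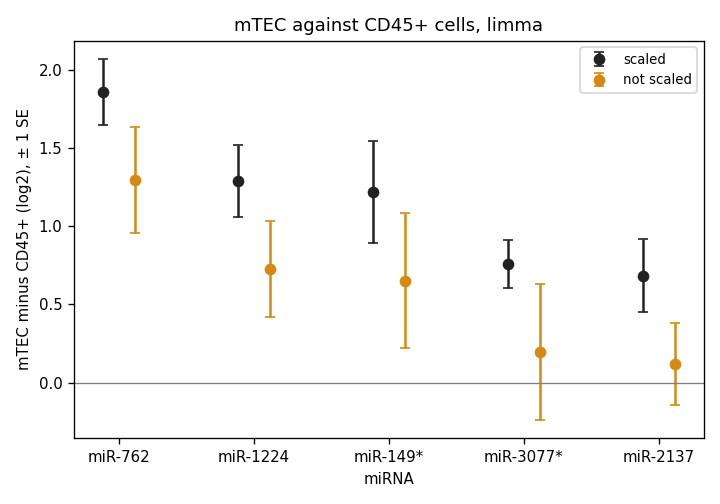
Log2 difference of mTECs from CD45+ cells for each of the 5 miRNAs (vertical axis, points with 1 SE from limma on 3 against 3 arrays), scaled in black and not scaled in orange. Scaled differences run from 0.68 for mmu-miR-2137 to 1.86 for mmu-miR-762, and each unscaled difference lies below its scaled one.

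The hairpins of mmu-miR-1224, mmu-miR-149* and mmu-miR-3077* have a second strand with a probe of its own on the array, shown here because the precursor is the same and the bases are not.
miR-1224*: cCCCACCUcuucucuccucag
miR-149: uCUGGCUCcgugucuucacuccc
miR-3077: cUGACUCCcugcuucuccgcag

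None of these other strands was well above background on a cTEC array. The probe of miR-3077 was well above background on no array, with processed signals from -115 to -55.6. The probe of miR-1224* was so on 1 array, mTEC replicate 2, with a processed signal of 361. That of miR-149, the strand named as the main product of its hairpin, was so on 5 arrays, with processed signals of 299 and 295 on CD45+ replicates 1 and 2 and 876, 437 and 657 on the mTEC arrays, beside 57.8 and 65.8 on the cTEC arrays. The cTEC arrays therefore gave a signal for mmu-miR-149* (7022 and 5169) and none above background for the other strand of its hairpin. The G+C shares of these strands were 61.9% for miR-1224*, 60.9% for miR-149 and 63.6% for miR-3077, and none held a run of GGG.

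The similarity of the 5 over the 8 arrays was largely fixed by choosing them for the same pattern, and is given as a description. The Pearson r of each member's log2 scaled signal with the mean of the other 4 was between 0.972 for mmu-miR-3077* and 0.999 for mmu-miR-1224 over 8 arrays, and between 0.822 and 0.982 on the unscaled signal. The arrays also share the scaling factors and the 3 populations. Outside the set, the 5 miRNAs with the most similar pattern to the mean of the 5 were miR-2861 (r = 0.997 over 8 arrays), miR-714 (0.971), miR-328* (0.959), miR-211* (0.957) and miR-1895 (0.955). Their G+C shares were 94.7%, 81.0%, 81.8%, 66.7% and 72.7%.

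The nearest of these by pattern, miR-2861, is at chr2:32712819-32712837 on the minus strand of GRCm38.p6 and holds no base other than G and C apart from its 1 U.
miR-2861: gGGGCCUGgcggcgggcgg

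Its mean scaled signal was 3501 in CD45+ cells, 22718 in cTECs and 6558 in mTECs, and limma called it higher in mTECs than in CD45+ cells (0.89, adjusted p = 0.00564). Unscaled, its difference of cTECs was 0.36 from CD45+ cells and 0.03 from mTECs. The scaled differences of cTECs from CD45+ cells of miR-714, miR-328*, miR-211* and miR-1895 were 1.75, 1.85, 2.08 and 0.85, and their unscaled differences lay between -0.86 and -0.25. Unlike the 5, these 4 were dimmer on cTEC than on CD45+ arrays before scaling.

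Among the 65 miRNAs measured on all arrays, the cTEC difference was larger for those rich in G+C. The 7 of less than 40% G+C had a median scaled difference of cTECs from CD45+ cells of -1.82, the 19 of 40% to 50% had -1.30, the 11 of 50% to 60% had 0.28, the 15 of 60% to 70% had 0.85 and the 6 of 70% to 80% had 0.72. In the 7 of 80% or more, 4 of which belong to the set, the median was 2.69, and all 7 lay higher on both cTEC arrays than on all others. The other 3 of these were miR-2861, miR-714 and miR-328*. The part of base composition in the difference of the 5 was not tested.

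Without the 5, all 16 miRNAs of at least 65% G+C had a scaled cTEC signal above that of CD45+ cells, by a median of 1.26 (0.02 to 2.69), while among the 44 of lower G+C 20 did so and the median was -0.69. Unscaled, the medians were -0.79 and -3.02. The G+C share and the scaled difference correlated across these 60 probes with a Pearson r of 0.588 and a Spearman rho of 0.579, and across the 65 with 0.667 and 0.650. Over all 309 tested, many of them at the floor, the relation was weaker, with 0.375 and 0.165, and with 0.286 and 0.123 without the 5. The median difference in the 309 was between 0 and 0.11 in every range of G+C below 80%. Probes are not replicates and share the 8 arrays and their scaling, so that no p is given. At 66.7% G+C, mmu-miR-1224 had a difference of 3.35. The others of this share measured on all arrays were miR-211* (2.08), miR-1937c (0.49) and miR-720 (0.02).

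**Figure D4:**
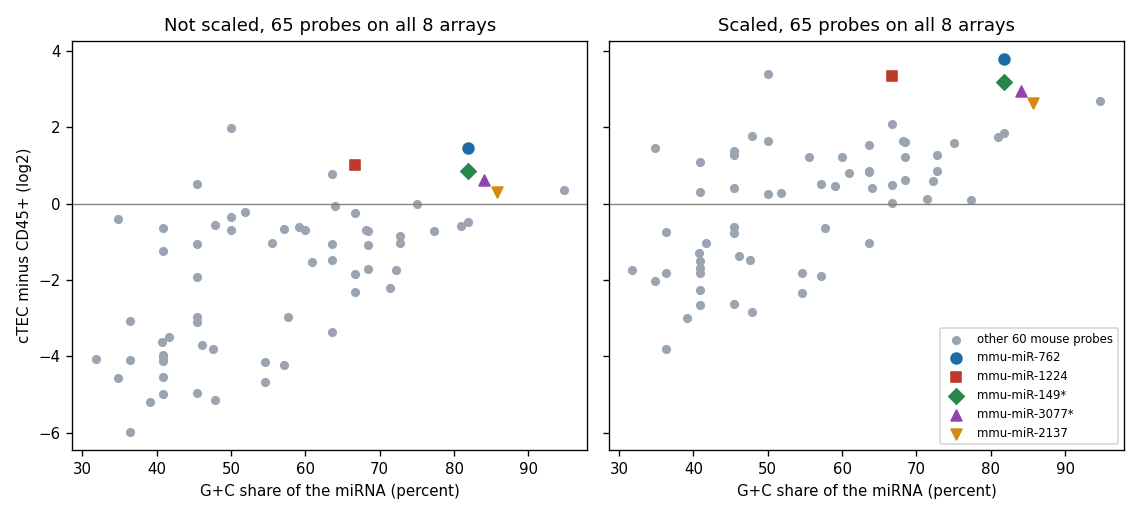
Log2 difference of cTECs from CD45+ cells (vertical axis) against the G+C share of the miRNA in percent (horizontal axis) for the 65 mouse miRNAs well above background on all 8 arrays, not scaled on the left and scaled on the right. The 5 miRNAs, in colour, lie from 2.65 to 3.79 on the right and from 0.32 to 1.46 on the left, where most of the other 60 lie below 0.

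A further list of mouse miRNAs, fixed as rich in G+C although not all of its entries were, gave the wider setting. It was chosen with earlier results of these data known, so that its counts are a description and no support. Of 26 names listed, 19 were on the array, with G+C shares from 34.8% to 94.7% and a median of 66.7%. Of these 16 were tested, and 11 of the 16 lay higher on both cTEC arrays than on all others after scaling (beside 11% of all tested, 83 of which were at the floor on every array). Among those measured on all arrays it was 10 of 12, beside 29 of the 65 (44.6%). Their median scaled difference of cTECs from CD45+ cells was 0.65, and limma called 2 of them, miR-2861 and miR-714, higher in mTECs than in CD45+ cells and none lower. The mouse miRNAs with the highest G+C shares outside the set and well above background on both cTEC arrays were miR-2861, miR-328*, miR-714, miR-3072* and miR-346*. Of these miR-346* (77.3% G+C) was well above background on 4 arrays and had a mean scaled signal of 1363 in cTECs, 42.4 in CD45+ cells and 221 in mTECs. Both other populations lay under the floor, so that its scaled difference of 1.10 from each is set by the floor and understated. The same holds for miR-3072* (77.3%), with a mean scaled signal of 641 in cTECs, 237 in CD45+ cells and 376 in mTECs and a difference of 0.11.

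Marker miRNAs on the same arrays went with the gates in part. The summed scaled signal of 6 epithelial miRNAs, the miR-200 family and miR-205, was 3953 and 8214 on the cTEC arrays, between 547 and 616 on CD45+ and between 32444 and 35428 on mTEC arrays, and 3 of the 6 were well above background on both cTEC arrays, while miR-429 was so on neither. For 5 blood cell miRNAs the sum was 3310 to 4758 in cTECs, 20943 to 25073 in CD45+ cells and 1908 to 2436 in mTECs. Of these, miR-142-3p, miR-142-5p and miR-223 were not well above background on any cTEC array, while miR-150 and miR-181a were so on both. The mean scaled signal of miR-150 was 656 in cTECs, 313 in mTECs, which is under the floor, and 3540 in CD45+ cells. That of miR-181a was 2288, 1053 and 13255. Unscaled, both were lower in cTECs than in mTECs, with log2 differences of -0.63 for miR-150 and -0.90 for miR-181a. The endothelial miR-126-3p had a mean scaled signal of 1814 in cTECs, 232 in CD45+ cells and 401 in mTECs. The values of CD45+ cells and mTECs lay under the floor. Its unscaled log2 difference of cTECs was 0.51 from CD45+ cells and 0.27 from mTECs. The other strand, miR-126-5p, was well above background on no array. The 4 mesenchymal miRNAs summed to 2204 to 5106 in cTECs and 6237 to 6658 in mTECs, with 1 of the 4, miR-143, well above background on both cTEC arrays. Of the red cell pair, miR-451 and miR-144, neither was well above background on a cTEC array. The part of other cells in the signal of the 5 was not tested.

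How large the cTEC excess of the 5 was depended on the scaling, and the direction of its group means did not under any scaling tried. The median of the 5 differences of cTECs from CD45+ cells was 3.19 as reported and 0.86 with no scaling, and it was 2.77 after quantile normalization and 1.61 in the log2 table that the authors deposited. Scaled to miRNAs of less than 65% G+C it was 4.28, and scaled to the other miRNAs of at least 65% G+C it was 2.73. With this last scaling, chosen after the data had been seen, single members ran from 2.19 for mmu-miR-2137 to 3.33 for mmu-miR-762. The median difference of cTECs from mTECs was 1.97 as reported, 1.53 with this last scaling and 0.21 with none.

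In the deposited table, named as quantile normalized, the log2 value of mmu-miR-762 was 12.53, 12.37 and 12.75 in CD45+ cells, 14.96 and 14.34 in cTECs and 13.81, 13.95 and 14.21 in mTECs. That of mmu-miR-3077* was 11.77, 11.84 and 11.84 in CD45+ cells, 13.25 and 13.19 in cTECs and 12.00, 12.16 and 12.23 in mTECs. For both, the cTEC arrays were above all others there too.

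**Figure D5:**
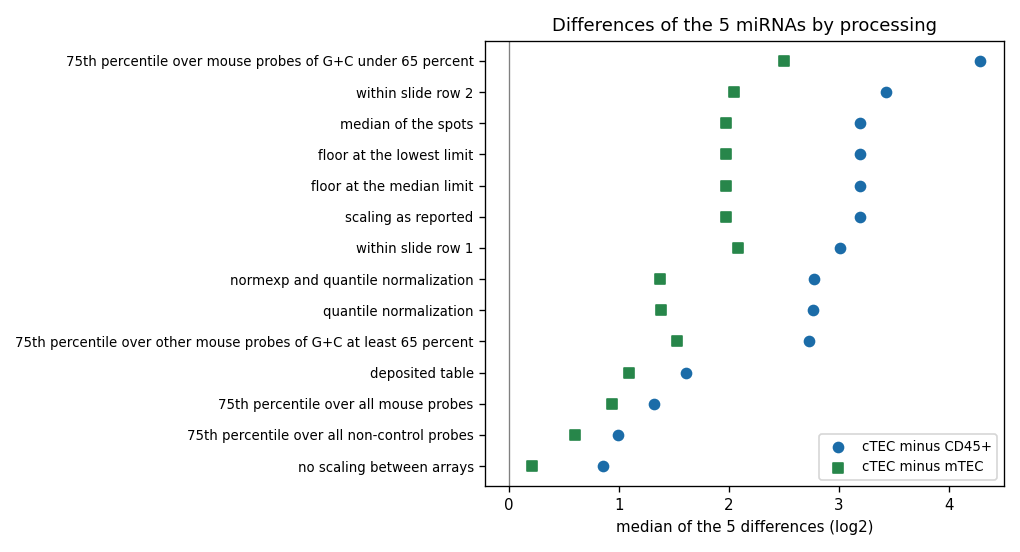
Median over the 5 miRNAs of the log2 difference of cTECs from CD45+ cells (blue circles) and from mTECs (green squares) on the horizontal axis, for each way of processing named on the vertical axis. All medians lie above 0, from 0.86 to 4.28 for CD45+ cells and from 0.21 to 2.50 for mTECs, the lowest of each with no scaling between arrays.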

How the data were processed

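Sorted cTECs (2 samples), mTECs (3) and CD45+ cells (3) gave RNA that was labelled with Cy3 and hybridised to the 8 arrays of 1 slide. For every array the authors deposited scanner output holding the spot intensity, raw and background-subtracted (Feature Extraction 10.7.3.1 per the file headers), and a log2 table whose name gives it as quantile normalized. Its order in each array was that of the raw median spot signal. The table the authors deposited also holds a fold change or ratio, an adjusted p-value and a log odds score for their own comparisons, none of which was used. The submitters' processing notes name limma, with no version, and how the table was normalized is described no further in the sources used here.

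Outlier spots by the scanner's marks (1.09% to 1.85% of 14834 per array) were left out. The scaling factor of an array was its 75th percentile of the 65 mouse probes that were well above background throughout, and log2 values of the 5 spots per probe were averaged. A floor of 621.0 (9.28 on the log2 scale), the highest of the 8 arrays' lowest signals well above background, replaced lower values, so that log2 differences of dim miRNAs are understated. Testing required that the majority of spots be well above background in 2 or more arrays. Of the 309 tested, 83 lay at the floor on every array and were entered as not different. The 3 group means were fitted in 1 model by limma 3.58.1 in R 4.3.3 (lmFit and eBayes, two-sided, 5 residual degrees of freedom), and p-values were adjusted over all 309. The number of arrays limits the precision. The limma step was tested on simulated log2 values, and the scaling, outlier removal, spot averaging and filter were not.

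The 5 miRNAs, the lists, the floor and the tests were chosen with earlier results of these data known. After a first run the summary over the 5 was changed from the median signal per array, which was always that of miR-762, to the median of their 5 differences. The miRNAs named are the 5, the other strands of their hairpins, the 5 most similar by Pearson r, the 5 of highest G+C share on the cTEC arrays, the listed ones and, for its place in the order, miR-125b-5p. Alternatives were other scalings, the deposited table, normexp with an offset of 50, other floors and filters, the median of spots, a trend in intensity, the tested groups alone, blocks, and each array left out.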

Additional observations from a re-analysis of the deposited data

Results flagged for a closer look

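The array carries 2648 probes outside the deposited mouse table, which have no names in the files used and are compared nowhere above, where they enter only the alternative scaling over all probes that were not controls. Of these, 128 were well above background on all 8 arrays, a signal in data that the comparisons do not use, while none of the 616 negative control spots was. After scaling, 57 of the 128 lay higher on both cTEC arrays than on each of the other 6, beside 29 of the 65 mouse probes measured on all arrays. The difference of cTECs from CD45+ cells of 19 of the 128 was at or above the 2.65 of miR-2137, the lowest of the 5 miRNAs. With no name or sequence given, these probes could not be matched to the 5. Some of them may target the same sequence as a member, so that the counts are not counts of further miRNAs.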

How the results depend on the processing

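The median difference of the 5 miRNAs (cTECs from CD45+ cells, then from mTECs) was 3.19 and 1.97 as reported, 0.86 and 0.21 without scaling, 1.31 and 0.94 when the percentile was taken over all mouse probes, 0.99 and 0.60 over all probes that were not controls, 2.77 and 1.38 with quantile normalization, 1.61 and 1.09 in the deposited table, 2.78 and 1.37 with normexp and quantile normalization, 4.28 and 2.50 over mouse probes of G+C under 65% and 2.73 and 1.53 over the others of at least 65%. The last 2 were added after seeing the data. The medians were 3.01 and 2.08 within slide row 1 and 3.43 and 2.05 within row 2. With 1 array left out they ran from 3.01 to 3.51 and from 1.69 to 2.25. The count of the 5 that lay higher on both cTEC arrays than elsewhere fell to 0 with no scaling and with the percentile over all probes that were not controls. It was 4 with the percentile over all mouse probes (without miR-149*) and with quantile normalization, alone or after normexp (without miR-762, whose lowest cTEC array tied with the highest mTEC array), and 5 under the other alternatives run.

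In mTECs against CD45+ cells limma called 4 of the 5, 1 without scaling and 0 when the percentile was taken over all mouse probes or over all probes that were not controls. Under these last 2 scalings miR-3077* (-0.083 and -0.076) and miR-2137 (-0.16 and -0.15) turned to lower in mTECs. With 1 array left out 3 to 5 were called, 3 without any 1 of CD45+ replicates 1 to 3, cTEC replicates 1 and 2 or mTEC replicate 2, and 5 without mTEC replicate 1. The total of 74 calls was 121 in the deposited table and also with normexp and quantile normalization together (84 with quantile normalization alone), 115 and 140 with the median and the lowest limit as floor, 31 with the filter of all 8 arrays, which tests fewer miRNAs, 47 with scaling over mouse probes of G+C under 65%, and 67 to 75 with 1 array left out. The 28 higher and 46 lower became 18 and 92 with the percentile over all mouse probes, 20 and 82 over all probes that were not controls, 27 and 20 over those of G+C under 65%, and 55 and 60 or 76 and 64 with the median or the lowest limit as floor. Without a filter miR-149* was not called (adjusted p = 0.167).

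The replicate numbers were not taken to pair the arrays, since not every same-numbered pair correlated above 0.1 (0.055, -0.148 and 0.196 for CD45+ and mTEC, 0.052 and -0.217 for CD45+ and cTEC, 0.278 and 0.200 for cTEC and mTEC arrays). The 2 cTEC arrays gave values of equal size and opposite sign with any other array, so that this check cannot decide whether the arrays are paired. With the number as a replicate block limma called 69 miRNAs and all 5 members, miR-2137 with an adjusted p of 0.0198. The cause of these shifts was not tested. There are 2 cTEC arrays, 1 slide and an RNA amount that is not given in the sources used here, and the size of each cTEC difference depends on the scaling. Dim spots limit the rest: under the floor no order can be read.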
